A study of Mus musculus with 23 samples.

Results

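Glycolysis splits glucose into pyruvate in the cytosol and yields ATP without oxygen. In dendritic cells the pathway is known to support activation, when the cells enlarge their secretory apparatus and take up more glucose, and lactate dehydrogenase keeps it running by reducing pyruvate to lactate, which restores NAD+. The members of the route followed here were Slc2a1, which encodes the glucose transporter GLUT1, and the enzyme genes Pfkp, Aldoa, Tpi1, Gapdh, Pgk1, Pgam1, Eno1, Pkm and Ldha. They were taken by symbol from the deposited count table, and all 10 were found among its 13572 gene rows. Of these, 8 passed the filter on low counts and stood among the 2076 genes tested, whereas Slc2a1 and Pgam1 did not pass and are described by their counts.

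The RNA came from type 1 conventional dendritic cells (cDC1), which present tumour antigen to CD8 T cells, isolated from subcutaneous melanomas of wild-type C57BL/6 mice on day 6 after injection of tumour cells. In the PGE2-deficient group (4 mice, 11 pools) the mice carried BRAFV600E melanoma cells without Ptgs1 and Ptgs2, the cyclooxygenase genes that start prostaglandin E2 (PGE2) synthesis. In the control group (4 mice, 12 pools) they carried control BRAFV600E cells that produce PGE2. Host cells kept both genes in each group, no PGE2 level was among the files used, and the number of knockout clones is not given in the sources used here. Cells of the surface phenotype CD11b- CD103+ CD11c+ MHC-II+ CD45+ were sorted in pools of 10 and read out by Smart-seq3, a full-length RNA sequencing method for very small inputs. Pools of a mouse are technical replicates and were summed. The mouse is thus the unit of every test except limma-voom, an alternative run over the pools.

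Mice held 101017 to 230478 counts, and single pools 34088 to 98554 counts (median 51511) in PGE2-deficient tumours and 25571 to 57523 (median 46258) in control tumours. All 14 cDC1 markers were detected in both groups, with a summed level of 6383 to 9161 CPM (counts scaled to a common library total) per PGE2-deficient mouse and 3476 to 5811 CPM per control mouse. Of markers of other cells, those of cDC2 summed to 90.8 to 213.5 CPM against 414.1 to 768.4 CPM. Macrophage and monocyte markers held 73 counts against 172, pDC markers 4 against 109 and T cell markers 60 against 14. NK cell markers held 20 against 3 and melanoma markers 1 against 9. For these lists, unlike cDC2, the mice overlapped: macrophage and monocyte markers spanned 99.05 to 201.7 CPM against 11.5 to 807.6 CPM. The pDC markers spanned 5.103 to 11.86 against 0 to 662.4 CPM, and T cell markers 0 to 255.9 against 0 to 126.5 CPM. NK cell markers spanned 0 to 81.64 against 0 to 17.21 CPM, and melanoma markers 0 to 5.103 against 0 to 50.18 CPM. B cell markers held 0 counts in both groups, and none of the 6 neutrophil markers had a row. In pools of cells, fewer cells of a type and less RNA per cell cannot be told apart.

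Gapdh, the most abundant of the enzymes per kilobase of principal transcript, has many processed copies in the mouse genome. The sequences show how little separates these copies from the gene. The 3 pairs below are the Gapdh coding sequence and the corresponding stretch of a processed pseudogene with a row of its own in the count table. The capital marks the single base by which the aligned coding sequences differ, positions are counted from the A of the start codon, and the sequences are GENCODE M21 transcripts (GRCm38). Gm13394 on chromosome 2 differs by A346C within coding bases 326 to 366, Gm12537 on chromosome 4 by C495T within bases 475 to 515, and Gm14760 on chromosome X by T757G within bases 737 to 777, the base of Gapdh being given first.
Gapdh: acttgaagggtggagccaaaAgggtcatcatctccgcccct
Gm13394: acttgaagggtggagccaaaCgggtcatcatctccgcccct
Gapdh: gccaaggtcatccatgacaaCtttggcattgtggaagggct
Gm12537: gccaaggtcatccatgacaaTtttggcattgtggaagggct
Gapdh: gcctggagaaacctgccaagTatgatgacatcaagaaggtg
Gm14760: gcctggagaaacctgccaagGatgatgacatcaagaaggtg
Gm13394 held 67 counts in PGE2-deficient and 52 in control mice, Gm12537 63 and 23, and Gm14760 29 and 26. A read within the aligned coding sequence that does not cover the differing base carries no information on which of the rows it came from, so the Gapdh level is uncertain in a way that the levels of Pfkp and Slc2a1, which had no such copy, are not.

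The promoters of Pfkp, Pgk1 and Ldha are shown because the first had the largest and the second the smallest fold change of the tested members, and the third the most core motifs of the hypoxia response. These 3 were chosen after the values were seen. Capitals mark ACGTG and GCGTG on either strand, the core letters bound by hypoxia-inducible factors. The sequences are RefSeq windows (GRCm38.p6) from 250 bases before to 50 after an annotated start, read 5′ to 3′ on the gene's strand. The Pfkp window is chr13:6648722-6649021 (minus strand), the Pgk1 window chrX:106186850-106187149 (plus strand) and the Ldha window chr7:46845554-46845853 (plus strand).
Pfkp: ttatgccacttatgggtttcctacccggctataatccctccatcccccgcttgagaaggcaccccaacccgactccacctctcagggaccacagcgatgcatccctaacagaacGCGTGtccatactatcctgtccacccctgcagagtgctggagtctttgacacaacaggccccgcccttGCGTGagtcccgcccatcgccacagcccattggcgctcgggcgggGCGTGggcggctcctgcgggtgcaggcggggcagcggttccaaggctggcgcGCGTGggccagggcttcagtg
Pgk1: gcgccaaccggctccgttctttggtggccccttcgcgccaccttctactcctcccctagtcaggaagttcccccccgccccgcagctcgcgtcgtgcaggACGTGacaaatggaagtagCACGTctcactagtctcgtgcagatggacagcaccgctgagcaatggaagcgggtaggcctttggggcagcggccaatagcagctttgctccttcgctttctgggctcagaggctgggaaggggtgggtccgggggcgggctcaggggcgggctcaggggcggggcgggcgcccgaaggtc
Ldha: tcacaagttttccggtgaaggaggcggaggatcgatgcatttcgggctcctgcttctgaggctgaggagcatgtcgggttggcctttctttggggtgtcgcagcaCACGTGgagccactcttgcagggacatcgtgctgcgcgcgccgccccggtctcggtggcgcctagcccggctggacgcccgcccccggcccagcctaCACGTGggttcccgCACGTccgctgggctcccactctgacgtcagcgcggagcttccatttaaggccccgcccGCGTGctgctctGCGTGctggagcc
The Pfkp window held 4 GCGTG and 0 ACGTG, the Pgk1 window 2 ACGTG and the Ldha window 5 ACGTG and 2 GCGTG, where each CACGTG counts for both strands. A second annotated Ldha start, at chr7:46846832-46847131, held 0 ACGTG and 2 GCGTG in its window, and Pfkp and Pgk1 had 1 window each. Among 32851 promoter windows of the same length, 19.625% held at least 1 ACGTG, 32.386% at least 1 GCGTG and 43.773% either. A single match is thus common and describes letters only. CACGTG, present in the Ldha window, was held by 7.15%. The share of windows with several matches was not counted.

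**Figure D1:**
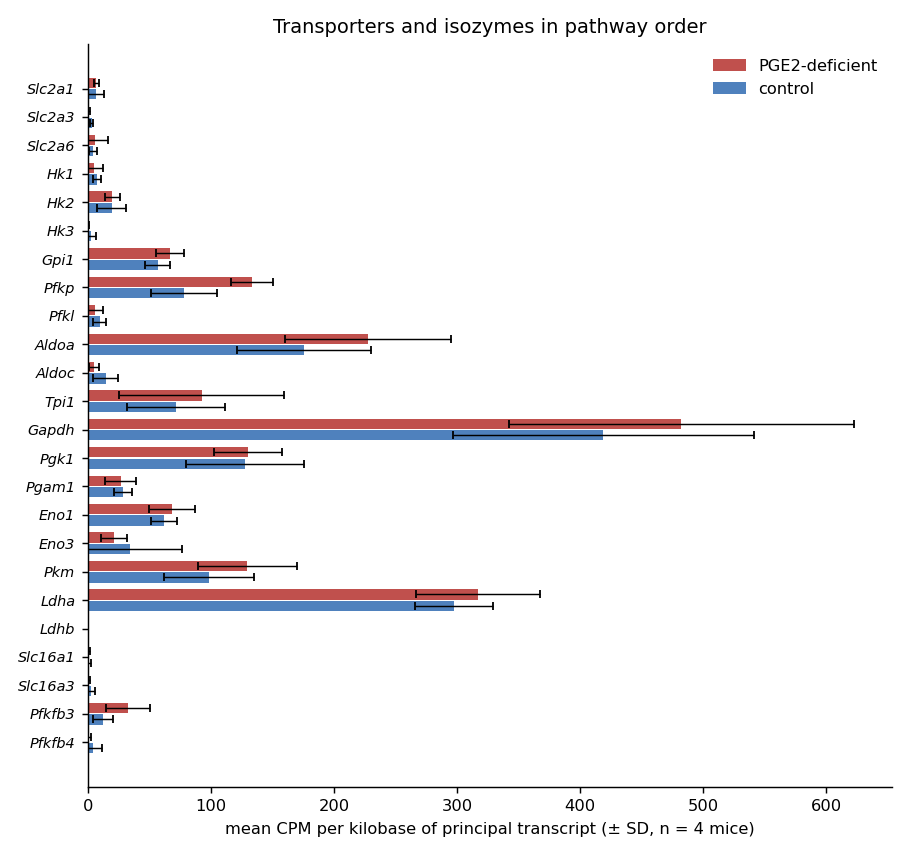
Mean level of transporters and enzymes of the pathway in cDC1, in CPM per kilobase of the principal transcript, in pathway order (bars: mean of 4 mice per group, PGE2-deficient above control; whiskers: SD). Gapdh and Ldha have the longest bars, Slc2a1 is close to 0, and Ldhb has no count.

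Levels of different genes were set side by side only per kilobase of their principal transcript. On that scale, over all 8 mice, Gapdh averaged 450.5 ± 126.4 CPM per kb, Ldha 307.2 ± 40.46 and Aldoa, the aldolase that splits fructose-1,6-bisphosphate, 201.7 ± 63.34 (SD, n = 8). Gapdh lay above Ldha in 8 of 8 mice, Ldha above Aldoa in 7 and Aldoa above Pgk1 in 7. The middle of the order could not be separated: Pgk1 at 129 ± 36.2 lay above Pkm at 114 ± 39.34 in only 3 of 8 mice, Pkm above Pfkp at 105.6 ± 36.03 in 5, Pfkp above Tpi1 at 82.04 ± 52.29 in 5, and Tpi1 above Eno1 at 65.06 ± 14.55 in 5. Eno1 lay above Pgam1 (27.62 ± 9.603 CPM per kb) and Pgam1 above Slc2a1 (6.724 ± 4.678) in 8 of 8 mice each. Divided by the union of all annotated exons instead, Ldha came first, Gapdh second and Pfkp seventh. Whether reads or molecular identifiers were counted is not given in the sources used here, and dividing by length suits reads spread along a transcript.

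Pfkp, Aldoa, Eno1 and Ldha had the highest mean level among the isozymes examined for their step, in both groups. Pfkp, the platelet-type phosphofructokinase, had 133.1 ± 17.2 CPM per kb in PGE2-deficient and 78.11 ± 26.76 in control mice, whereas the liver-type Pfkl had 5.894 ± 6.777 and 9.494 ± 4.944 (SD, n = 4 each). Aldoc had 5.062 ± 4.319 and 14.63 ± 10.13 CPM per kb beside the higher level of Aldoa. Ldhb, whose subunit favours the oxidation of lactate, had 0 counts in all 23 pools, which allows 3 counts per group, or 5.952 CPM in PGE2-deficient and 6.971 CPM in control mice. Of the hexokinases, which trap glucose in the cell, Hk2 led with 19.83 ± 6.299 and 19.39 ± 11.98 CPM per kb, against 5.049 ± 6.997 and 7.114 ± 3.283 for Hk1. The lactate transporters Slc16a1 and Slc16a3 held 1 count each in PGE2-deficient mice, against 2 and 5 counts in control mice.

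None of the 8 tested members passed the adjusted threshold between PGE2-deficient and control tumours in edgeR's quasi-likelihood test, in either direction, and DESeq2 also called 0. Over the whole table, 103 of 2076 genes passed, or 4.96% (2.7% higher and 2.26% lower). All 8 log2 fold changes were above 0, with a median of 0.23, while 50.67% of all tested genes lay above 0 with a median of 0.01. The size of this shift varied with single mice. The median of the members was 0.06 without control mouse 3, with 6 of 8 above 0. It was 0.10 with 7 of 8 without PGE2-deficient mouse 2, and 0.12 with 7 of 8 without control mouse 1. Leaving out any other mouse gave medians of 0.23 to 0.29, with 7 or 8 of 8 above 0. With no count filter all 10 members were tested, 9 were above 0 and the median was 0.15. At an unadjusted p under 0.05 stood 1 member, Pfkp, beside 18.7% of all tested genes (9.63% higher). Together the 10 members held 0.2514% ± 0.03995 of the counts in PGE2-deficient and 0.1978% ± 0.04251 in control mice (SD, n = 4 each), with overlapping ranges of 0.2101% to 0.3019% and 0.1572% to 0.2509%.

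**Figure D2:**
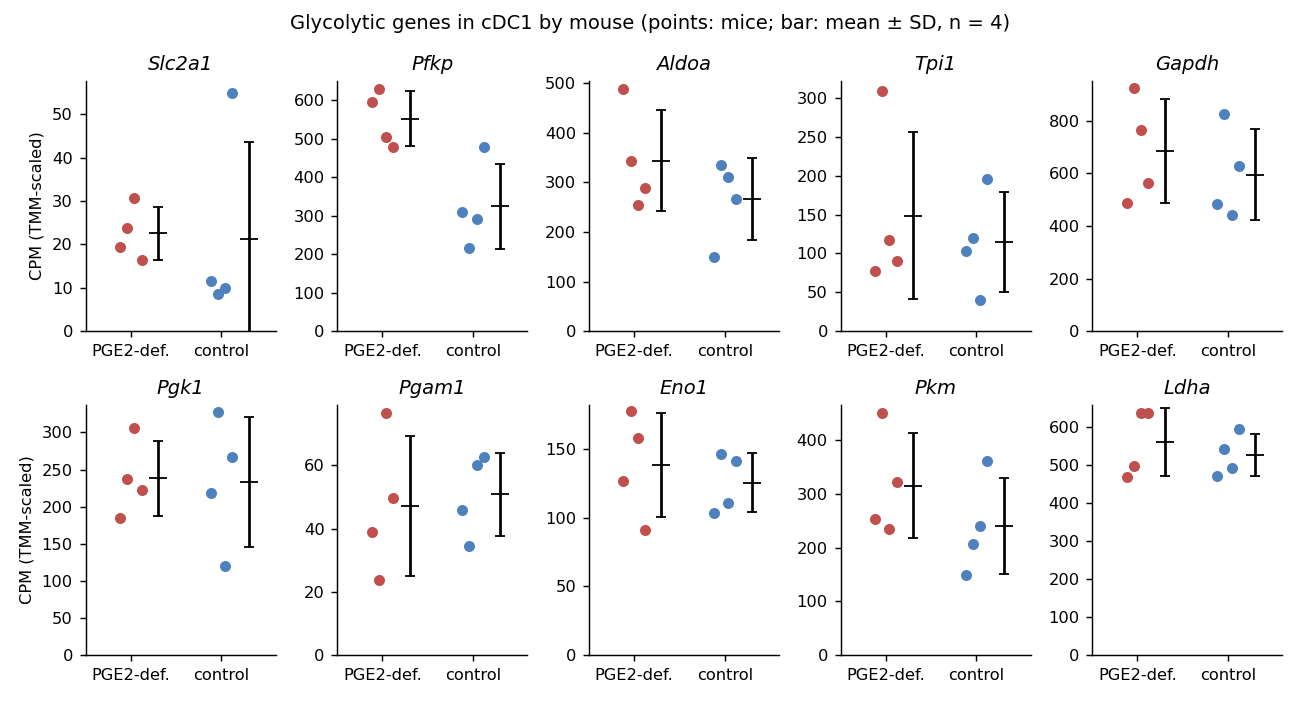
Scaled counts (CPM) of the 10 genes in each of the 8 mice (points: mice; cross bar and whiskers: mean ± SD, n = 4; PGE2-deficient left, control right; each panel has its own scale from 0). Only in the Pfkp panel do the points of both groups not overlap, by 478.8 against 478.3 CPM.

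Slc2a1 (ENSMUSG00000028645, chromosome 4, 119108711 to 119137983, plus strand, GRCm38 as for all coordinates of genes here), which carries glucose into the cell, was counted 12 times in PGE2-deficient and 10 times in control mice. The mice had 2, 2, 6 and 2 counts (19.49, 23.72, 30.62 and 16.51 CPM) in the PGE2-deficient group, against 1, 1, 1 and 7 counts (11.5, 8.604, 10.04 and 54.88 CPM) in the control group. Control mouse 4 was the highest of all 8, and the other 3 control mice were the lowest. The transcript was detected in 5 of 11 pools from PGE2-deficient and 6 of 12 from control tumours, so a difference was not detectable at this depth. Tested with no count filter, its log2 fold change was 0.03 (edgeR adjusted p = 0.991). The other glucose transporters examined were no more abundant, with 2 counts of Slc2a3 in PGE2-deficient against 5 in control mice and 4 against 4 of Slc2a6.

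Pfkp (ENSMUSG00000021196, chromosome 13, 6579768 to 6648777, minus strand) encodes the enzyme of the committed step, which phosphorylates fructose-6-phosphate. It had 594.5, 628.7, 505.2 and 478.8 CPM in PGE2-deficient mice, against 310.6, 215.1, 291.1 and 478.3 CPM in control mice. All 4 PGE2-deficient mice lay above all 4 control mice, but the lowest of them and control mouse 4 were level. Of all tested genes, 4.91% showed this separation and 10.6% a separation in either direction. The means were 551.8 ± 71.29 and 323.8 ± 110.9 CPM (SD, n = 4 each). The log2 fold change was 0.75 ± 0.24 (SE; 95% interval 0.25 to 1.25), with an edgeR p of 0.00536 that became 0.0772 after adjustment over all tested genes, rank 144 of 2076.

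Whether Pfkp passed depended on single mice and on the pools used. Without control mouse 4 the log2 fold change of Pfkp was 1.02 and passed (edgeR adjusted p = 0.0308), whereas without control mouse 2 it was 0.58 (adjusted p = 0.248). Technical replicates 2 and 3 alone gave 1.10 (adjusted p = 0.0159). Limma-voom over the pools, with the mouse as random effect, gave 0.80 (adjusted p = 0.0258). Its estimated correlation between pools of a mouse was −6e-04. The fit thus took technical replicates nearly as independent, so its p is no test by mouse. Without the 3 PGE2-deficient and 6 control pools that held 10 or more counts of macrophage, pDC or T cell markers, the log2 fold change was 0.86 (adjusted p = 0.151). These are the pools with markers of other cells left out below. The rule did not count cDC2 markers, so the pools kept can hold them. Of the 12 tested cDC1 markers, 5 were called higher in the PGE2-deficient mice, and their part in the Pfkp difference was not tested. Pfkp shares 748 exon bases with Pitrm1 on the opposite strand, a row with 13 counts in all pools.

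**Figure D3:**
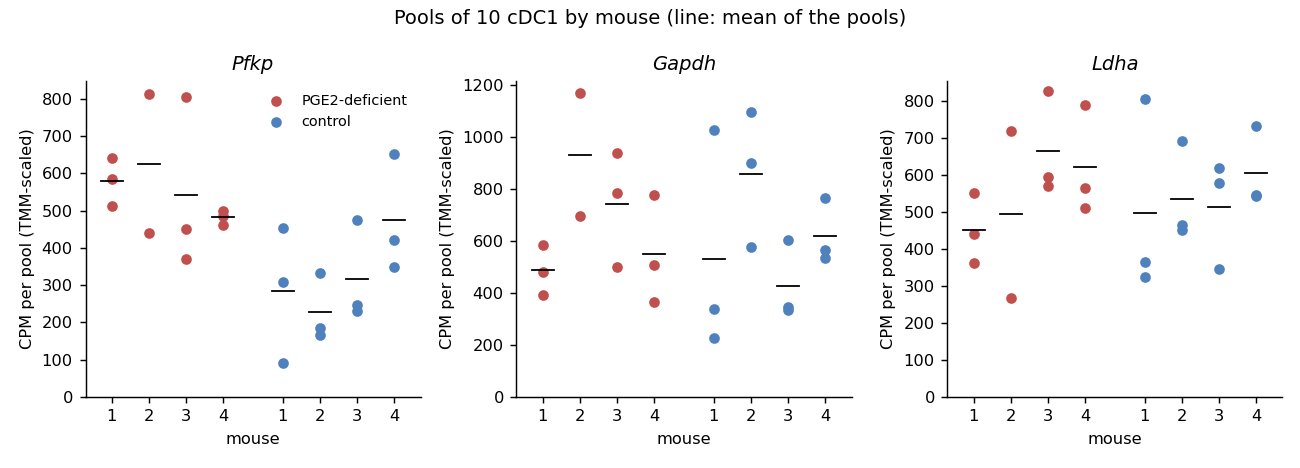
Pfkp, Gapdh and Ldha in each pool of 10 cells, in CPM, by mouse (points: pools; lines: mean of the pools of a mouse; PGE2-deficient mice left, control mice right). Pfkp pools of the 2 groups overlap, between 369.8 and 811.5 CPM in PGE2-deficient and between 89.42 and 650.7 CPM in control tumours.

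Single pools overlapped for Pfkp. The 11 pools from PGE2-deficient tumours lay between 369.8 and 811.5 CPM with a median of 497.6 CPM, and the 12 from control tumours between 89.42 and 650.7 CPM with a median of 320.7 CPM. The narrowest mouse was PGE2-deficient mouse 4, whose pools had 460.7, 486.1 and 497.6 CPM. Control mouse 4, the highest of its group, had 650.7, 349.2 and 421.7 CPM. Its highest pool gave 30 of the mouse's 61 Pfkp counts and held 126 counts of macrophage, pDC and T cell markers, the most of any pool, and their part in the Pfkp level was not tested.

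Aldoa and Tpi1 carry the sugar from the 6-carbon to the 3-carbon stage. Aldoa (ENSMUSG00000030695, chromosome 7, 126795234 to 126800751, minus strand) had 487.3, 344, 255.1 and 288.9 CPM in PGE2-deficient mice, against 149.5, 335.6, 311.1 and 266.6 CPM in control mice. PGE2-deficient mouse 1 was the highest and control mouse 1 the lowest, and the other 6 overlapped. Its log2 fold change was 0.34 ± 0.28 (SE; 95% interval −0.25 to 0.93; edgeR adjusted p = 0.571), and 0.11 without PGE2-deficient mouse 1. Without the pools holding macrophage, pDC or T cell markers it was 1.05 (adjusted p = 0.163).

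Tpi1 (ENSMUSG00000023456, chromosome 6, 124810586 to 124814296, minus strand) encodes triosephosphate isomerase, which interconverts the 2 triose phosphates. It had 77.97, 308.4, 117.4 and 90.8 CPM in PGE2-deficient mice, against 103.5, 120.5, 40.15 and 196 CPM in control mice. The groups overlapped, and PGE2-deficient mouse 2 alone lay far above the others. The log2 fold change was 0.26 ± 0.46 (SE; 95% interval −0.69 to 1.22; edgeR adjusted p = 0.828), and without PGE2-deficient mouse 2 it turned to −0.27.

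The later steps of the pathway, in which ATP and NADH are formed, begins with Gapdh (ENSMUSG00000057666, chromosome 6, 125161715 to 125166467, minus strand). Gapdh had 487.3, 925.3, 765.4 and 561.3 CPM in PGE2-deficient mice, against 483.1, 826, 441.6 and 627.2 CPM in control mice. The groups overlapped over nearly their whole range, with mouse 2 the highest in each. This gave a log2 fold change of 0.19 ± 0.23 (SE; 95% interval −0.30 to 0.68; edgeR adjusted p = 0.719), 0.04 without PGE2-deficient mouse 2 and 0.38 without control mouse 2.

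Pgk1 (ENSMUSG00000062070, chromosome X, 106187100 to 106203699, plus strand), the phosphoglycerate kinase that makes the first ATP of these steps, had 185.2, 237.2, 306.2 and 222.9 CPM in PGE2-deficient mice. Control mice had 218.6, 327, 120.4 and 266.6 CPM and enclosed the whole PGE2-deficient range. Its log2 fold change was 0.04 ± 0.29 (SE; 95% interval −0.58 to 0.65; edgeR adjusted p = 0.958), and its sign depended on the processing.

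Pgam1 (ENSMUSG00000011752, chromosome 19, 41911923 to 41918660, plus strand), which moves the phosphate group for the next step, did not pass the count filter. It had 4, 2, 15 and 6 counts (38.98, 23.72, 76.54 and 49.53 CPM) in PGE2-deficient mice, against 4, 4, 6 and 8 counts (46.01, 34.42, 60.22 and 62.72 CPM) in control mice. The groups overlapped, with 27 against 22 counts in all, and the transcript was detected in 8 of 11 and 9 of 12 pools. With no count filter its log2 fold change was −0.01 (edgeR adjusted p = 0.995).

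Eno1 (ENSMUSG00000063524, chromosome 4, 150236721 to 150248879, plus strand), the enolase that forms phosphoenolpyruvate, had 126.7, 177.9, 158.2 and 90.8 CPM in PGE2-deficient mice. In control mice it had 103.5, 146.3, 110.4 and 141.1 CPM, inside the PGE2-deficient range. The fitted log2 fold change was 0.12 ± 0.33 (SE; 95% interval −0.56 to 0.80; edgeR adjusted p = 0.894), 0.01 without PGE2-deficient mouse 3 and 0.27 without PGE2-deficient mouse 4. The muscle enolase Eno3 held 19 counts in PGE2-deficient and 20 in control mice.

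Pkm (ENSMUSG00000032294, chromosome 9, 59656368 to 59679375, plus strand) encodes the pyruvate kinase that forms pyruvate and ATP, and the counts do not separate its splice forms. It had 253.4, 450.8, 234.7 and 321.9 CPM in PGE2-deficient mice, against 149.5, 206.5, 240.9 and 360.7 CPM in control mice. Each PGE2-deficient mouse lay above the control median, but 3 of the 4 lay below control mouse 4. The log2 fold change was 0.35 ± 0.30 (SE; 95% interval −0.27 to 0.96; edgeR adjusted p = 0.579), 0.15 without PGE2-deficient mouse 2 and 0.62 without control mouse 4.

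Ldha (ENSMUSG00000063229, chromosome 7, 46841475 to 46855627, plus strand), which turns pyruvate into lactate, had 467.8, 498.2, 637.8 and 635.6 CPM in PGE2-deficient mice, against 471.6, 542.1, 491.8 and 595.9 CPM in control mice. The means were 559.9 ± 89.61 and 525.3 ± 55.58 CPM (SD, n = 4 each), with PGE2-deficient mice 3 and 4 the highest of all. The log2 fold change was 0.10 ± 0.19 (SE; edgeR adjusted p = 0.852), and its 95% interval of −0.31 to 0.50 was the narrowest of the 8. Leaving out 1 mouse moved it between 0.01 (without PGE2-deficient mouse 3) and 0.17 (without PGE2-deficient mouse 1).

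**Figure D4:**
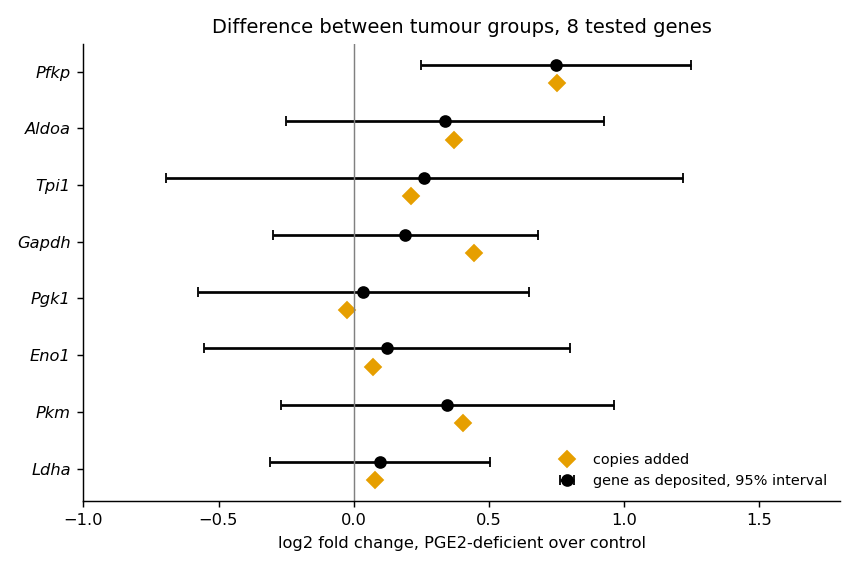
log2 fold change of the 8 tested genes, PGE2-deficient over control (black points: gene as deposited, with 95% interval; orange diamonds: counts of near-identical copies added to the gene). The interval excludes 0 for Pfkp, at 0.25 to 1.25, and includes it for the other 7.

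Rows of near-identical copies of Gapdh held more counts than the Gapdh row. How reads matching several rows were assigned is not given in the sources used here, and the origin of the copy counts was not tested. Copies of lower identity tended to hold fewer counts. The median per copy was 11 at 99% identity or more and 12.5 at 97% to under 99%. It was 5.5 at 95% to under 97% and 2 below 95%. Single copies departed from this: Gm10359, 100.0% identical over 1002 aligned bases, held 0 counts, and Gm4335, at 98.3%, held 59. A copy was counted where BLAST aligned at least 200 bases at 90% identity or more over at least 50% of the copy's transcript. By this rule Gapdh had 86 copy rows, of which 80 were annotated as processed pseudogenes, and these held 668 counts in PGE2-deficient and 405 in control mice, beside 346 and 262 counts in the Gapdh row itself. Copies thus held 63.8% of the counts of gene and copies together. The 25 copies with 99% identity or more held 49.4% of the copy counts, and the 17 below 95% held 4.2%. By mouse, the copies' share was 59.02%, 70.45%, 62.12% and 70.69% in the PGE2-deficient group, against 55.79%, 61.75%, 60.36% and 61.9% in the control group. It was highest in PGE2-deficient mice 2 and 4, and the groups overlapped.

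With its copies added, Gapdh had 2064 ± 802 CPM in PGE2-deficient and 1503 ± 507.1 CPM in control mice (SD, n = 4 each), with a log2 fold change of 0.45 ± 0.24 (SE; edgeR adjusted p = 0.349). Pgk1 had 2 copies that held 28.0% of its joint counts. One of them, Pgk1-rs7 on chromosome 12, was 100.0% identical over 1255 aligned bases and had 39 counts in PGE2-deficient and 43 in control mice. Pgk1 with copies had a log2 fold change of −0.03 (edgeR adjusted p = 0.967). The copies of Eno1 were Eno1b (99.5% identity, 22 counts in PGE2-deficient and 15 in control mice) and Gm4735 (99.6% identity, 11 and 15 counts). Together they held 33.5% of the joint counts. The copies of Pgam1 held 9.26% and those of Pkm 5.54%, while those of Tpi1, Aldoa and Ldha held under 2 of every 100 counts.

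**Figure D5:**
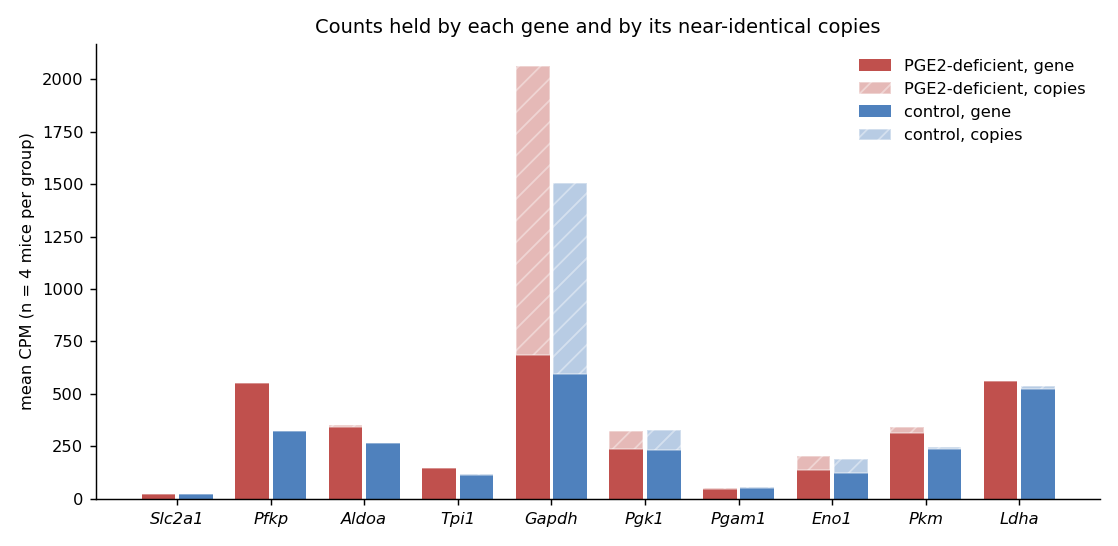
Mean level of each gene (solid) and of its near-identical copies (hatched, stacked on top), in CPM over the 4 mice of each group, PGE2-deficient left and control right of each pair. The hatched part exceeds the solid part for Gapdh alone, bringing the sum to 2064 CPM in PGE2-deficient and 1503 CPM in control mice.

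Pools of the same mouse differed from each other unequally from gene to gene. On the log2(CPM + 10) scale the SD between pools of a mouse was 0.47 for Ldha, 0.57 for Gapdh, 0.60 for Pfkp and 0.61 for Pkm. It was 0.70 for Aldoa, 0.75 for Pgk1, 0.90 for Eno1 and 0.97 for Tpi1, and 1.29 for Slc2a1 and 1.56 for Pgam1, the rarest of the 10. For rare genes this SD rests on the pseudocount: with 1 CPM it was 2.94 for Slc2a1 and 3.08 for Pgam1, with 50 CPM 0.48 for Slc2a1, 0.72 for Pgam1 and 0.59 for Tpi1, so that Slc2a1 then lay below Pfkp (0.52) and Gapdh (0.53). Relative to counting noise the order was another. Chi-squared per degree of freedom among a mouse's pools was 3.39 for Gapdh and 2.83 for Aldoa. The median over all tested genes was 1.72, and Slc2a1, Tpi1 and Pkm had only 1.21 to 1.32. Where pools differ beyond counting noise this measure grows with a gene's count, so genes of unlike counts do not compare directly. Over the 23 pools, with group means removed, the 28 pairs of tested members had a median Pearson r of 0.13, beside 0.00 over all pairs of tested genes. The highest was 0.67 for Eno1 with Gapdh, followed by 0.64 for Pgk1 with Gapdh and 0.62 for Gapdh with Tpi1. The lowest was −0.46 for Gapdh with Pfkp, and Pfkp also ran below 0 with Eno1 (−0.38), Pgk1 (−0.32) and Tpi1 (−0.30). These values are descriptions, since pools share mice and library depth.

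The genes around the pathway were likewise without a call, 0 of 26 tested genes of 6 lists in edgeR's test and in DESeq2, with 5 of the 26 at an unadjusted edgeR p under 0.05, where 18.7% of all tested genes stood. Among other glycolysis genes, 4 of 20 in the table were tested, with Gpi1, the isomerase before Pfkp, at a log2 fold change of 0.24 ± 0.27 (SE; edgeR adjusted p = 0.685) and Gpd2, which passes electrons of glycerol-3-phosphate to the respiratory chain, at −0.53 ± 0.29 (adjusted p = 0.348). Outside the naming rule and chosen after its values were seen, Pfkfb3, whose product activates phosphofructokinase through fructose-2,6-bisphosphate, had 67 counts in PGE2-deficient and 26 in control mice (1.24 ± 0.47, adjusted p = 0.138). Of the pentose phosphate pathway, 3 of 10 genes were tested. Taldo1 stood at 0.20 (adjusted p = 0.712) and Tkt at 0.36 (adjusted p = 0.571), while Pgls, also named after its values were seen, stood at −1.26 ± 0.38 (adjusted p = 0.062) with all PGE2-deficient mice below all control mice.

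Downstream of Pkm, 11 of 31 genes of pyruvate entry and the tricarboxylic acid cycle were tested, 6 of them above 0, with a median of 0.38. Mpc1 encodes a subunit of the carrier that brings pyruvate into mitochondria. It had 238.2 CPM in PGE2-deficient and 369.8 CPM in control mice (log2 fold change −0.67, edgeR adjusted p = 0.169). Limma-voom over pools, which took them nearly as independent, gave −0.75 for Mpc1 (adjusted p = 0.0487). Mdh1 stood at −0.21 (edgeR adjusted p = 0.741). Of hypoxia-inducible genes outside glycolysis 5 of 21 were tested, with a median of 0.07. Anxa2 stood at 0.34 (adjusted p = 0.555) and Mif at −0.25 (adjusted p = 0.812). Of the regulators of glycolytic genes 2 of 20 were tested: Hif1a, the oxygen-sensitive factor that drives many of these enzymes, at −0.58 (adjusted p = 0.394), and Rheb, the activator of mTORC1, at −0.76 (adjusted p = 0.242). Gfpt1, which diverts fructose-6-phosphate to hexosamines, stood at −0.07 (adjusted p = 0.924).

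The genes whose levels over the 8 mice were most like the summed members, by the root mean square difference of centred log2 CPM among 872 candidates of at least 200 CPM, were Gabarap (0.13), Pdia6 (0.15), Mrpl33 (0.15), Actg1 (0.15) and Atrx (0.17). The median candidate had 0.42.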

How the data were processed

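The authors deposited whole-number counts per gene and pool of 10 cells, without normalization. STAR 2.5.4b and GRCm38 (mm10) are named in the submitters' processing notes. Not given in the sources used here are the counting program, the annotation, the strand setting, any filter and the use of molecular identifiers. PCR reads are not independent molecules, so the floor of 3 counts covers counting error only.

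The members, gene lists and tests were chosen with earlier results of these data known. Pools of a mouse were summed (PGE2-deficient mouse 2 had 2 pools). Of 13572 rows, 261 had no count, and 2076 genes with 80.63% of the counts passed filterByExpr (minimum count 10). They were tested with edgeR 4.0.16 (TMM scaling, two-sided quasi-likelihood F-test, threshold 0.05 after Benjamini-Hochberg adjustment across these genes; common biological coefficient of variation 21.85%). CPM divide a count by the TMM-adjusted sum over tested genes. On simulated counts with known changes, drawn at the common dispersion, the test recovered 60% of 2-fold and 100% of 4-fold changes. Of its calls, 3.846% were false. The largest fold of a tested member was 1.681 (Pfkp), and recovery at that size was not tested.

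Mouse numbers recur in both groups but were not taken as pairs: deviations of same-numbered mice correlated between −0.089 and 0.095. Pools of a mouse were no duplicates. All members were named, and from each list the called genes or, with none called, the 2 most abundant tested genes. Alternatives were other scalings and filters, DESeq2 1.42.0, robust dispersion, limma 3.58.1 (voom over pools), subsets of pools or mice, the mouse number as a block, added copies and other pseudocounts. Of all rows, 13556 matched GENCODE M21, and copies were sought with BLAST 2.17.0. The software was R 4.3.3 and Python 3.11.15, with Biopython 1.88 and matplotlib 3.10.9.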

Additional observations from a re-analysis of the deposited data

Results flagged for a closer look

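Slc2a1 in control mouse 4 lay apart from the other control mice, with 54.88 CPM against a next highest of 11.5 CPM, a gap of 0.937 of the group's range over 4 mice. The value rests on 7 counts. Tpi1 in PGE2-deficient mouse 2 lay apart in the same way, with 308.4 CPM against a next highest of 117.4 CPM and 26 counts, just past the limit for a single distant value. That mouse had 2 pools where the others had 3, and each held 13 Tpi1 counts (301.4 and 316.7 CPM). Of 20 groups of mice examined, 10 genes in both groups, chance flags about 1 in 20 if values are normally distributed. That rate need not hold for low and tied counts such as those of Slc2a1.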

How the results depend on the processing

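No member was called lower under any alternative, and Pfkp was the sole member called higher under some: 1 call with limma-voom over pools, with technical replicates 2 and 3 alone and without control mouse 4. Leaving out each mouse gave 0 to 1 members called higher, 31 to 67 genes called higher over the whole table (31 without control mouse 2) and 23 to 45 called lower (31 without PGE2-deficient mouse 4, 25 without control mouse 2, 23 without control mouse 3, 25 without control mouse 4), beside 56 and 47 in all mice. With the mouse number as a replicate block Pfkp stood at 0.78 (edgeR adjusted p = 0.0971) and 28 genes were called lower. No filter gave 110 genes higher and 84 lower, a minimum count of 20 gave 32 and 25, technical replicates 2 and 3 alone 32 and 19, and leaving out pools with markers of other cells 18 and 6, with 1131 genes tested. Total counts alone gave 24 lower. Limma-voom, which took the pools nearly as independent, gave 79 lower, among them 1 gene of the lists around the pathway, Mpc1.

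Some log2 fold changes of members turned negative, none of them called. Pgk1 did so with upper quartile factors (−0.029), technical replicates 2 and 3 (−0.313), copies added (−0.025), and without PGE2-deficient mouse 3 (−0.146), control mouse 1 (−0.01) or control mouse 3 (−0.18), against up to 0.232 without control mouse 2. Gapdh did with technical replicates 2 and 3 (−0.078), Tpi1 without PGE2-deficient mouse 2 (−0.265) or control mouse 3 (−0.015), against up to 0.672 without control mouse 4, and Ldha without pools holding other cells' markers (−0.095). The cause was not tested. Upper quartile factors moved the median of all genes to −0.06. At these depths Slc2a1 and Pgam1 did not pass the count filter, and the 95% interval of Tpi1 spanned −0.69 to 1.22.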
